A study of Rattus norvegicus with 218 samples.

Results

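Neurons of the vagal dorsal motor nucleus (DMV) from rats that had remote ischemic preconditioning (RIPC) were compared with neurons from naive rats. A sample belonged to the comparison if its label gave RIPC or naive as the condition, on either side of the brainstem, and if at least 42 of its assays gave a value. Of 143 RIPC and naive samples 124 passed, 43 RIPC and 81 naive, out of 186 samples that passed in the whole series. Just inside the limit lay samples with 43, 44, 45 and 46 assays, and just outside it samples with 38, 39, 41 and 41. All rats were male Sprague Dawley. The RIPC rats received ketamine and xylazine, had their femoral vessels tied on either leg and then released, and were sampled 2.5 h after reperfusion. For naive rats the labels give neither this anaesthesia nor surgery, and by the study's methods all rats had brief isoflurane before decapitation, so surgical anaesthesia, incision and limb ischemia cannot be told apart in this contrast. In both groups NeuN-stained neurons were cut out of frozen sections by laser capture, singly or in pools, and their transcripts were measured by microfluidic RT-qPCR with a panel of 165 genes. Each group had 3 animals, and the animal was the replicate.

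The DMV holds the cell bodies of parasympathetic motor neurons that project through the vagus nerve to the heart and the viscera. Most of them use acetylcholine, which is made by choline acetyltransferase (Chat), and they receive GABA, glutamate, catecholamine and peptide inputs from neighbouring brainstem nuclei. In RIPC, brief ischemia of a limb lowers the injury that a later ischemia does to the heart, and vagal motor neurons of the DMV have been implicated in that effect. The question of the contrast was which transcripts of DMV neurons differ between rats after RIPC and undisturbed rats.

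Each assay gave a threshold cycle (Ct), a number that falls as transcript increases, or no value where the transcript was below detection. For each gene, 2 quantities were taken per animal. The share is the percentage of an animal's samples with a Ct. The level is the median Ct of 35 widely detected genes in the sample minus the Ct of the gene, in cycles, averaged over an animal's detected samples where there were at least 2, so that a higher level means more transcript and 1 cycle is nominally a doubling. Levels are compared within a gene and not between genes. Pools of neurons and single neurons were kept apart.

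The kept pools numbered 3, 10 and 11 in naive replicates 1, 2 and 3, and 8, 8 and 2 in RIPC replicates 1, 2 and 3. The kept single neurons numbered 0, 3 and 54 in the naive animals and 4, 10 and 11 in the RIPC animals. The naive side of the single-neuron comparison therefore had 2 animals, one of them with 3 neurons. The title of 1 neuron labelled as RIPC replicate 3 resembles titles of RIPC replicate 2, so its animal is uncertain. Without it no gene was called by share or level in single neurons, with 3 genes each at an unadjusted p under 0.05. Pools held on average 4.15 ± 0.593 cells in naive and 3.63 ± 0.545 cells in RIPC animals (SD, n = 3). In a pool, fewer cells that express a gene and less RNA per cell cannot be told apart.

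Assay yield did not separate the groups. Pools of the naive animals had a mean of 71.7, 84.4 and 99.6 assays with a Ct, and those of the RIPC animals 65.4, 99.4 and 93.5. The group means were 85.2 ± 14 and 86.1 ± 18.2 assays (SD, n = 3 animals each; exact permutation test, two-sided, p = 1, where 0.1 is the smallest p that 3 against 3 animals allow). Single neurons had 58.7 and 73.7 assays in the naive animals and 80.5, 68.6 and 73.5 in the RIPC animals (exact permutation test, two-sided, p = 0.5, smallest possible 0.1).

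**Figure D1:**
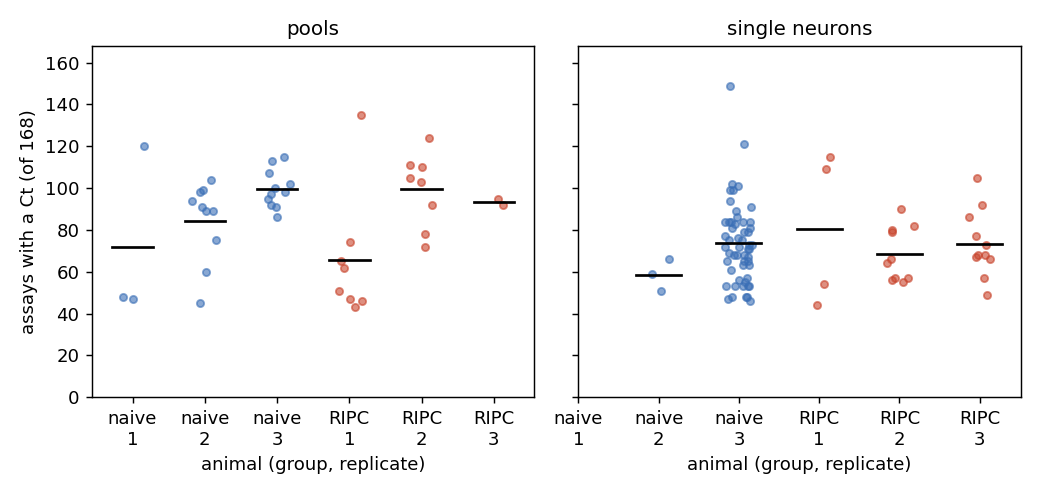
Number of assays with a Ct in each kept sample, by animal, for pools (left panel) and single neurons (right panel). Points are samples, blue for naive and red for RIPC, and black bars are animal means; naive and RIPC animals overlap in both panels, and the 8 pools of RIPC replicate 1 average 65.4 assays.

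RIPC replicate 1 stood apart among the pools. Its 8 pools ranged from 43 to 135 assays, and it alone had the lowest share of the 6 animals in 47 of the 130 genes tested, against 3 to 20 genes for each of the other 5 animals. Chat was found in 2 of its 8 pools and in every pool of the other 2 RIPC animals. Without it the RIPC minus naive difference in pool share changed sign for 27 of the 130 genes, 24 of them from lower to higher in RIPC. It went from −18.3 to 6.67 percentage points for Chat, −7.22 to 17.8 for Gabra2, −0.101 to 27 for Npr2, −2.25 to 22.8 for Fstl1, −5 to 3.33 for Camk2a, −3.61 to 19.3 for Gfap, −1.11 to 26 for Scn1a, −10.6 to 8.19 for Agt, −19.5 to 3.45 for Cacna1d and −1.39 to 11.1 for Rgs4. It moved from 35.9 to 58.8 for Agtr1a, from 34.2 to 53 for Cckar and from −27.4 to −17 for Sst.

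No gene passed the test in either sample type. By share in pools 0 of 130 genes (0%) had a limma adjusted p under 0.05, the smallest being 0.649, and 4 genes (3.08%) had an unadjusted p under 0.05. By level in pools it was 0 of 99 genes (0%), with a smallest adjusted p of 0.416 and 4 genes (4.04%) at an unadjusted p under 0.05. By share in single neurons it was 0 of 122 genes (0%), with a smallest adjusted p of 0.719 and 3 genes (2.46%) unadjusted, and by level 0 of 59 genes (0%), with a smallest adjusted p of 0.867 and 3 genes (5.08%) unadjusted. The values below are therefore descriptions of where the RIPC animals lay relative to the naive animals. They name genes whose groups did not overlap, which means that every RIPC animal lay above, or every RIPC animal below, every naive animal.

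Over all genes the differences went both ways. The median RIPC minus naive difference in pools was 0.694 percentage points by share, with 67 genes higher and 63 lower (8.78 percentage points, with 87 higher and 42 lower, without RIPC replicate 1), and −0.19 cycles by level, with 39 genes higher and 60 lower. In single neurons the median was 4.94 percentage points by share, with 81 genes higher and 40 lower, and 0.03 cycles by level. In pools all RIPC animals lay above all naive animals in 4 genes by share (3.08%), namely Cacna1g, Hrh1, Pparg and Cckbr, and below in 1 gene (0.769%), Cck. Without RIPC replicate 1 these counts were 18 and 4. In single neurons the groups did not overlap in 13 genes above (10.7%) and 6 genes below (4.92%), and in 8 of the 13 genes above, naive replicate 2 had no positive neuron among its 3. Over all tested genes that animal was at 0 in 36 of 122. Leaving out an animal can only keep or raise such counts, so the rise is no sign of dependence on that animal: they were 50 above and 19 below without naive replicate 3, 23 and 21 without naive replicate 2, and, on leaving out RIPC replicate 1, 2 or 3, they were 17 and 10, 28 and 10, or 24 and 14. In pools, leaving out RIPC replicate 2 gave 6 and 9, leaving out RIPC replicate 3 gave 9 and 9, leaving out naive replicate 1 gave 5 and 4, and leaving out naive replicate 3 gave 9 and 2.

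**Figure D2:**
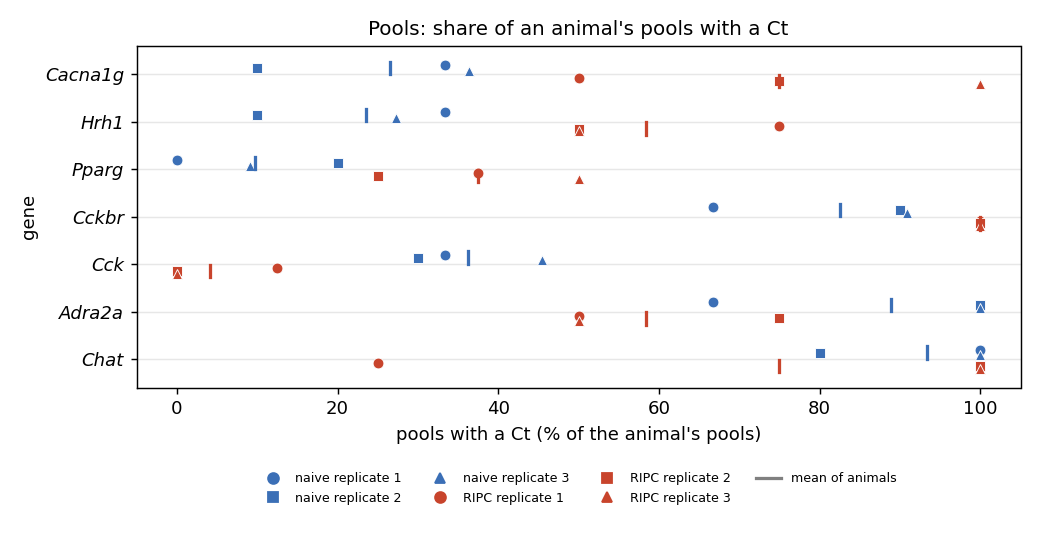
Share of each animal's pools with a Ct (x axis, percent) for the 5 genes whose RIPC and naive animals did not overlap and for Adra2a and Chat, whose groups did. Blue symbols are naive and red symbols RIPC animals, shapes are replicate numbers and bars are means of 3 animals; Cacna1g runs from 10% to 36.4% in naive and from 50% to 100% in RIPC animals.

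Among the shares in pools, the smallest p and the widest difference belonged to Cacna1g. It encodes a pore subunit of T-type calcium channels, which open near the resting potential and shape rebound firing. The transcript was detected in 1 of 3, 1 of 10 and 4 of 11 pools of the naive animals and in 4 of 8, 6 of 8 and 2 of 2 pools of the RIPC animals, which is 33.3%, 10% and 36.4% against 50%, 75% and 100%. The means were 26.6% ± 14.4 and 75% ± 25 (SD, n = 3), a difference of 48.4 percentage points (SE 15.2; limma p = 0.00499, adjusted p = 0.649; exact permutation p = 0.1, two-sided, the smallest possible). The lowest RIPC animal exceeded the highest naive animal. The exact 95% binomial intervals of single animals were wide, for example 15.7% to 84.3% for 4 of 8 and 10.9% to 69.2% for 4 of 11, and such intervals cover counting error only.

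Cacna1g was also the only gene of the 114 tested in both sample types whose groups failed to overlap in the same direction in both. It was found in 0 of 3 and 11 of 54 single neurons of the naive animals, and in 1 of 4, 3 of 10 and 6 of 11 of the RIPC animals. The shares of 25%, 30% and 54.5% in RIPC animals lay above the naive 0% and 20.4%, and the lowest RIPC share, 25%, is 1 of 4 neurons (difference 26.3 percentage points, SE 16.8, limma adjusted p = 0.893). Sham animals, which had the same surgery without occlusion, averaged 62.9% ± 7.59 of pools (SD, n = 4). Of the 3 T-type genes 2 were higher and 1 lower in RIPC pools, with a median difference of 4.44 percentage points (14.9 without RIPC replicate 1), and Cacna1i was found in 33.3%, 60% and 90.9% of naive pools against 25%, 62.5% and 50% of RIPC pools, which overlap. By level, Cacna1i was −0.65 and −1.69 cycles in the naive animals and −2.07 and −2.32 cycles in the RIPC animals with at least 2 detected pools (difference −1.03 cycles, SE 0.71, limma adjusted p = 0.931). The single detected pools of naive replicate 1 and RIPC replicate 3 were at −1.47 and 0.0421 cycles, and with them the groups overlapped (difference −0.18 cycles).

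Among the high-voltage-activated calcium channels the medians were −5.42 percentage points in pools and −11.8 in single neurons, over 4 and 3 tested genes. Without RIPC replicate 1 all 4 were higher in pools, with a median of 9.17 percentage points. Cacna1d, an L-type subunit that carries pacemaking current, was measured in single neurons of all 5 animals. Its level was −0.41 and −1.09 cycles in naive animals and −2.56, −2.41 and −1.37 cycles in RIPC animals. The groups did not overlap (difference −1.37 cycles, SE 0.54, limma p = 0.0343, adjusted p = 0.867; exact permutation p = 0.2). In pools its level differed by −0.04 cycles. Scn1a, a voltage-gated sodium channel gene, was detected in 75%, 70% and 90.9% of single RIPC neurons, above the 0% and 66.7% of naive neurons (difference 45.3 percentage points, SE 17.9, limma p = 0.0176, adjusted p = 0.719). The naive mean rested on 0 of 3 neurons in replicate 2, while 36 of 54 neurons in replicate 3 were positive. In pools the same gene differed by −1.11 percentage points. The 4 HCN pacemaker channel genes were all higher by share in RIPC pools, by 5.28 to 15.8 percentage points, with overlapping groups and a median of 10.7. Without RIPC replicate 1 they were higher by 17.8 to 38.7 percentage points, with a median of 33.6. By level in pools 1 was higher and 3 were lower (median −0.24 cycles), and by share in single neurons 2 were higher and 1 was lower (median 4.68 percentage points).

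Of the 4 histamine receptors, Hrh1 lay above in all RIPC animals by share in pools, as did 3.08% of all genes tested. This receptor, which excites neurons through Gq, was found in 1 of 3, 1 of 10 and 3 of 11 naive pools and in 6 of 8, 4 of 8 and 1 of 2 RIPC pools. That is 33.3%, 10% and 27.3% against 75%, 50% and 50%, and the groups did not overlap. The difference was 34.8 percentage points (SE 14.5; limma p = 0.0277, adjusted p = 0.996; exact permutation p = 0.1). Sham pools averaged 28.6% ± 14.5 (SD, n = 4).

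Single neurons overlapped. The share of Hrh1 was 0% and 35.2% in naive animals and 25%, 10% and 0% in RIPC animals, a difference of −5.93 percentage points. The Gi-coupled receptor Hrh3 overlapped by share in pools, with 33.3%, 40% and 72.7% against 25%, 75% and 50% (difference 1.31 percentage points). By level it was −3.08 and −3.49 cycles in naive and −3.72 and −4.45 cycles in RIPC animals. The single detected pools of naive replicate 1, at −1.79 cycles, and RIPC replicate 3, at −1.84 cycles, were left out of the fit by the minimum of 2, and with them the groups overlapped. Of the 4 histamine receptors 3 were higher and 1 lower by share in pools (median 3.84 percentage points, and 10.1 without RIPC replicate 1), and 1 was higher and 3 lower in single neurons (median −4.12).

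Among the natriuretic peptide genes Npr3 had the smallest p by level in pools. Npr3, the clearance receptor that removes natriuretic peptides, was found in 2 of 3, 6 of 10 and 4 of 11 naive pools and in 5 of 8, 8 of 8 and 0 of 2 RIPC pools, so the shares overlapped and their means were 54.3% and 54.2%. Where it was detected, its level was −7.01, −5.10 and −7.30 cycles in naive animals and −3.25 and −4.21 cycles in RIPC replicates 1 and 2. Both lay above every naive animal (difference 2.73 cycles, SE 0.79; limma p = 0.00481, adjusted p = 0.416; exact permutation p = 0.2). In pools of 4 or 5 cells alone Npr3 was the 1 gene of 60 called by level (limma adjusted p = 0.0384). No pool of RIPC replicate 3 was positive. Within the animals the range was wide: the detected pools of RIPC replicate 1 ran from −10.2 to 1.55 cycles with a median of −2.27, and those of naive replicate 3 from −8.23 to −6.83 with a median of −7.06.

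In single neurons the level of Npr3 was −7.30 and −7.20 cycles in naive animals and −3.50, −8.41 and −8.07 cycles in RIPC animals, which overlap (difference 0.59 cycles, limma adjusted p = 0.988). Npr2, the guanylyl cyclase receptor for C-type natriuretic peptide, had the smallest p of all genes by level in single neurons. Its level was −0.05 and −1.26 cycles in naive and −2.40, −3.63 and −1.56 cycles in RIPC animals, all below (difference −1.87 cycles, SE 0.73; limma p = 0.0332, adjusted p = 0.867). Its share was also below, with 3 of 3 and 29 of 54 naive neurons against 2 of 4, 4 of 10 and 5 of 11 RIPC neurons, or 100% and 53.7% against 50%, 40% and 45.5% (difference −31.7 percentage points, limma adjusted p = 0.893). The size of this difference rested on the 3 neurons of naive replicate 2, as the 53.7% of replicate 3 was close to the highest RIPC share of 50%.

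In pools Npr2 differed by −0.101 percentage points and −0.18 cycles, and its RIPC shares of 12.5%, 87.5% and 100% surrounded the naive 66.7%, 70% and 63.6%. Nppa, the gene of atrial natriuretic peptide, had levels of −2.60 and −4.24 cycles in naive replicates 2 and 3 and −5.09 and −5.68 cycles in RIPC replicates 1 and 2 (difference −1.97 cycles, limma adjusted p = 0.931). The single detected pools of naive replicate 1 and RIPC replicate 3, at −7.75 and −4.15 cycles, made the groups overlap, with a difference of −0.11 cycles. Nppc, the gene of C-type natriuretic peptide, was found in 33.3%, 30% and 72.7% of naive pools and 12.5%, 25% and 50% of RIPC pools, which overlap. Over the natriuretic genes 1 of 4 was higher and 3 were lower by share in pools (median −0.139 percentage points). Without RIPC replicate 1 they were 2 and 2, with a median of 5.95.

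Of all levels in pools, RIPC animals lay above the naive animals in 4 of 99 genes (4.04%) and below in 9 (9.09%). None of these 13 genes met the minimum of 2 detected pools in all 6 animals, and none of the 9 below met it in RIPC replicate 3, which kept 2 pools. Among all 99 genes, 30 fell short there and 31 in naive replicate 1. With animals of 1 detected pool put back, 3 of the 4 above and 4 of the 9 below still did not overlap. Th, Cacna1i, Dbh, Gabre, Hrh3 and Nppa then overlapped.

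**Figure D3:**
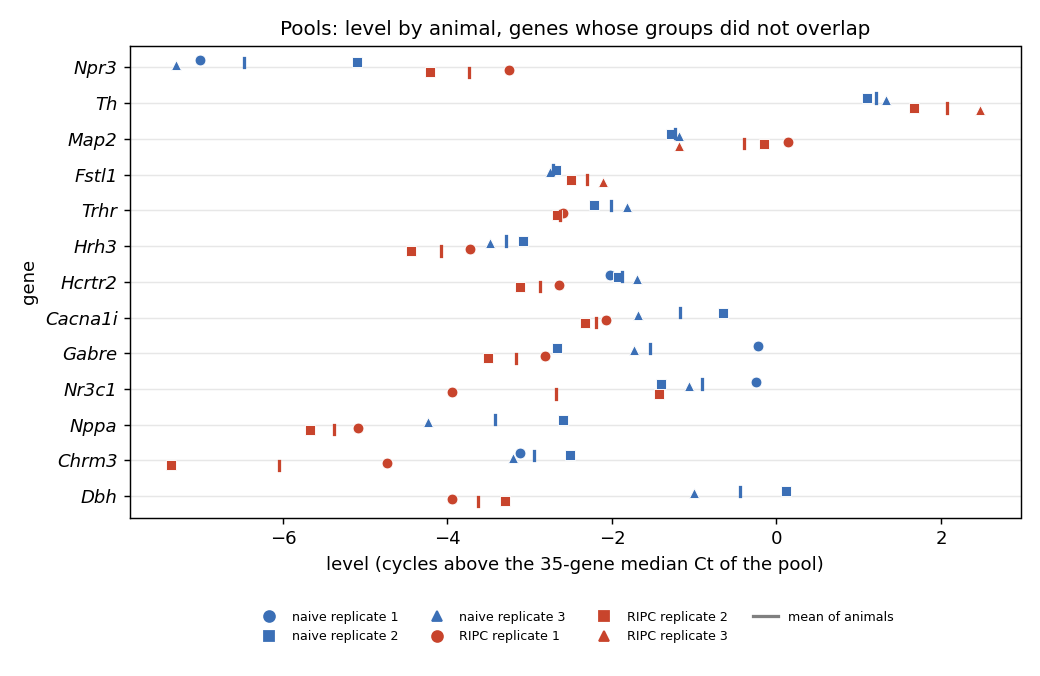
Level in pools (x axis, cycles above the 35-gene median Ct of the pool; higher is more transcript) for the 13 genes whose RIPC and naive animals did not overlap. Symbols are animals with at least 2 detected pools, leaving out those with 1, and bars are group means; the 4 genes at the top, led by Npr3, lie higher in RIPC, and the 9 below, down to Dbh, lie lower.

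In the angiotensin system Agtr1a and Agt lay above in all RIPC animals among single neurons, as did 10.7% of all genes tested. Agtr1a, the main angiotensin II receptor, was detected in 0 of 3 and 9 of 54 naive neurons and in 2 of 4, 3 of 10 and 7 of 11 RIPC neurons. The RIPC shares of 50%, 30% and 63.6% lay above the naive 0% and 16.7% (difference 39.5 percentage points, SE 15.7; limma p = 0.0177, adjusted p = 0.719; exact permutation p = 0.2). In RIPC replicates 1, 2 and 3 the positive neurons had a median Ct of 22.2, 21.5 and 21.6. In naive replicate 3 it was 17.3. In pools the share of Agtr1a was 0%, 40% and 27.3% in naive and 12.5%, 62.5% and 100% in RIPC animals, which overlap, with a mean difference in the same direction of 35.9 percentage points. The positive pools had a median Ct of 16.4 and 15.4 in naive replicates 2 and 3, and of 22.4, 21.2 and 19.1 in the RIPC animals. The RIPC detections were thus later, with less transcript per detected sample, in both sample types. Agt, the precursor angiotensinogen, was found in 33.3% and 79.6% of naive and 100%, 80% and 90.9% of RIPC single neurons (difference 33.8 percentage points, SE 16.7, limma adjusted p = 0.893), where 79.6% and 80% are 43 of 54 and 8 of 10 neurons. In pools Agt differed by −10.6 percentage points. All 3 tested genes of the list were higher by share in single neurons (median 33.8 percentage points, against 4.94 over all genes), and 1 of 3 was higher in pools (median −10.6). The single-neuron median is the value of Agt, whose naive mean rested in part on 1 of 3 neurons in replicate 2. Without RIPC replicate 1 all 3 were higher in pools too (median 17.8 percentage points, against 8.78 over all genes). By level in pools all 3 were lower (median −0.90 cycles, against −0.19 over all genes).

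**Figure D4:**
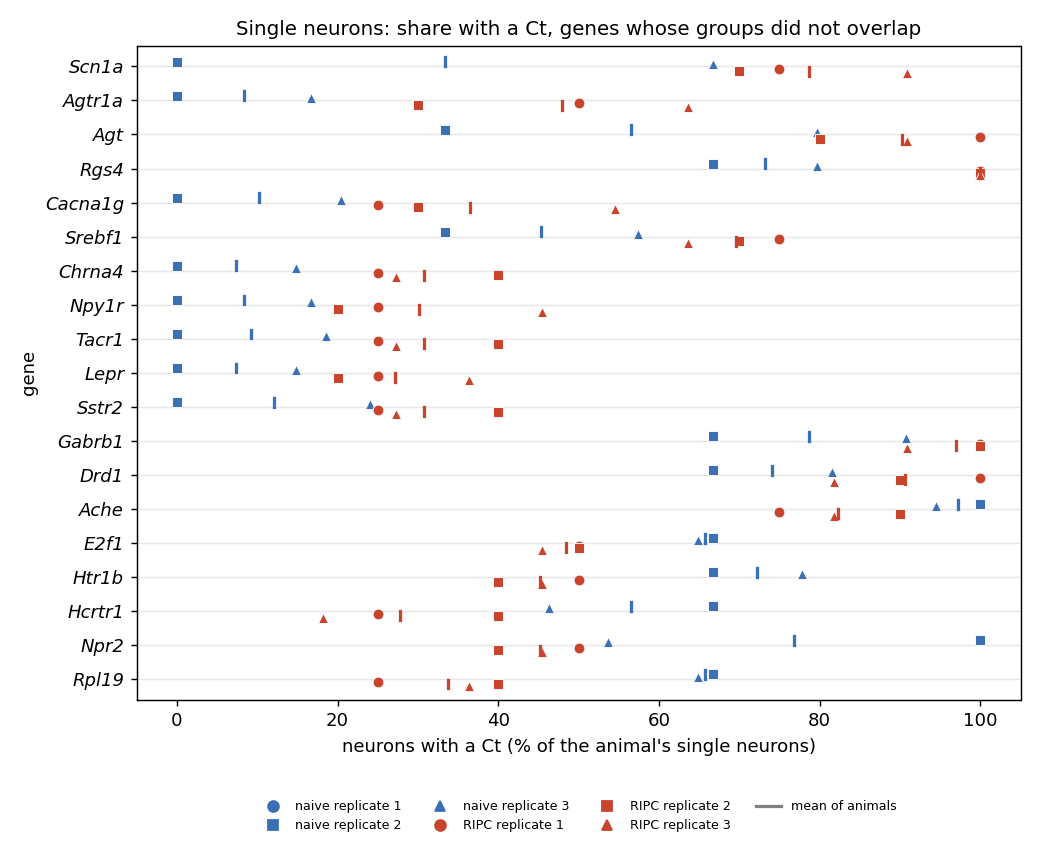
Share of each animal's single neurons with a Ct (x axis, percent) for the 19 genes whose RIPC and naive animals did not overlap. The naive group has 2 animals, replicate 2 with 3 neurons (blue squares) and replicate 3 with 54 (blue triangles); bars are means of animals, and in 13 genes, from Scn1a to Drd1, RIPC lies higher.

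Neither catecholamine synthesis enzyme passed the test. Th, tyrosine hydroxylase, which makes the dopamine precursor, was found in 33.3%, 80% and 72.7% of naive pools and 12.5%, 75% and 100% of RIPC pools, with means of 62% and 62.5%. Its level in pools was 1.10 and 1.33 cycles in naive replicates 2 and 3 and 1.67 and 2.48 cycles in RIPC replicates 2 and 3. These animals did not overlap (difference 0.86 cycles, SE 0.82, limma adjusted p = 0.931; exact permutation p = 0.333, the smallest possible for 2 against 2). The single detected pools of naive replicate 1 and RIPC replicate 1, at 2.65 and 2.56 cycles, made the groups overlap. In single neurons the level of Th differed the other way, by −2.40 cycles (SE 1.32), with 3.47 and −0.15 against −2.07, 1.18 and −1.33 cycles, and the groups overlapped. Dbh, which converts dopamine to noradrenaline, had levels of 0.11 and −1.0 cycles in naive and −3.95 and −3.30 cycles in RIPC pools (difference −3.18 cycles, SE 1.04; limma p = 0.0123, adjusted p = 0.416). That fit left out the single detected pools of naive replicate 1, at 2.14 cycles, and RIPC replicate 3, at 2.33 cycles, the highest of all animals. With them the groups overlapped and the difference was −2.06 cycles. Its shares overlapped, at 33.3%, 30% and 63.6% against 25%, 50% and 50%.

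Samples with Fos, an immediate early gene of recent activity, were few. Fos was found in 0 of 3, 1 of 10 and 3 of 11 naive pools and 2 of 8, 2 of 8 and 0 of 2 RIPC pools. Fos and Th occurred together in 6.36% ± 5.53 of naive and 12.5% ± 12.5 of RIPC pools (SD, n = 3; exact permutation p = 0.5). Among single neurons the pair occurred in 0 of 3 and 5 of 54 naive and in 2 of 4, 0 of 10 and 2 of 11 RIPC neurons (exact permutation p = 0.5). The Fos shares overlapped in both sample types, with few positive samples and at most 3 animals per group. Of the immediate early and activity genes, 3 of 4 were higher by share in pools (median 3.09 percentage points; 4 of 4 and 1.60 without RIPC replicate 1) and 5 of 6 in single neurons (median 13.6). By level in pools all 4 tested genes were lower (median −0.45 cycles, against −0.19 over all genes). Cebpb, a stress-induced transcription factor, was at 0%, 0% and 18.2% of naive pools and 37.5%, 0% and 50% of RIPC pools.

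Among adrenergic receptors Adra2a differed most between the sample types. Adra2a, the inhibitory α2A receptor, was found in 66.7%, 100% and 100% of naive pools and 50%, 75% and 50% of RIPC pools, where 75% exceeds the lowest naive animal (difference −30.6 percentage points, SE 14.5; limma p = 0.0491, adjusted p = 0.996). In single neurons it was found in 0 of 3 and 45 of 54 naive and 2 of 4, 10 of 10 and 7 of 11 RIPC neurons, a difference of 29.5 percentage points. The naive mean rested on the 0 of 3 neurons of replicate 2. The 83.3% of naive replicate 3 lay within the RIPC shares of 50%, 100% and 63.6%. The next value uses the same 3 neurons. The difference of the differences, single neurons minus pools, was 71.2 percentage points (limma p = 0.0157, adjusted p = 0.970). Over 114 genes 0 (0%) passed this test after adjustment and 3 (2.63%) had an unadjusted p under 0.05. Adra1a, the α1A receptor, was in 33.3%, 90% and 100% of naive and 12.5%, 87.5% and 50% of RIPC pools. Adra1b, a related α1 receptor, had single-neuron levels of −0.90 and −2.17 cycles in naive and −2.46 and −4.57 cycles in RIPC replicates 1 and 3 (difference −1.98 cycles, SE 0.95, limma adjusted p = 0.988).

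The cholinergic marker overlapped between groups. Chat was detected in 100%, 80% and 100% of naive pools and in 25%, 100% and 100% of RIPC pools, and in 66.7% and 68.5% of naive against 100%, 70% and 63.6% of RIPC single neurons. The difference in pools was −18.3 percentage points with all animals and 6.67 without RIPC replicate 1. Among muscarinic receptors Chrm3, a Gq-coupled receptor, had one of the smallest p values by level in pools. It was −3.12, −2.51 and −3.21 cycles in naive animals and −4.74 and −7.36 cycles in RIPC replicates 1 and 2 (difference −3.11 cycles, SE 1.06; limma p = 0.0126, adjusted p = 0.416; exact permutation p = 0.1). The 2 measured RIPC animals differed from each other by more than all naive animals did. The nicotinic subunit Chrna4 was found in 33.3%, 20% and 27.3% of naive and 12.5%, 37.5% and 100% of RIPC pools, and in 0% and 14.8% of naive against 25%, 40% and 27.3% of RIPC single neurons, where the groups did not overlap (difference 23.4 percentage points, SE 15.4, limma adjusted p = 0.893).

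Neither GABA synthesis gene passed the test. Gad1 was found in 33.3%, 50% and 72.7% of naive pools and 12.5%, 12.5% and 50% of RIPC pools, and Gad2 in 66.7%, 60% and 81.8% against 37.5%, 37.5% and 100%. Both overlapped between groups (differences −27 and −11.2 percentage points, and −20.8 and −0.745 without RIPC replicate 1). Chat occurred with Gad1 or Gad2 in 72.8% ± 7.96 of naive and 54.2% ± 40.2 of RIPC pools (SD, n = 3; exact permutation p = 0.5). Among single neurons, it occurred in 2 of 3 and 8 of 54 naive and in 3 of 4, 3 of 10 and 6 of 11 RIPC neurons (exact permutation p = 0.6). Over 14 tests of Chat, Gad1 or Gad2, Th, Fos and their combinations, pools and single neurons counted separately, the adjusted p was 1 in each.

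Of the GABA-A receptor subunits 1 of 6 was higher and 5 were lower by share in pools (median −6.12 percentage points), which became 4 higher and 2 lower without RIPC replicate 1 (median 18), and 4 were higher and 2 lower in single neurons (median 6.93). Gabra2, a common α subunit, was in 66.7%, 80% and 100% of naive and 25%, 100% and 100% of RIPC pools. Gabre, the ε subunit, had levels of −0.22, −2.67 and −1.73 cycles in naive and −2.82 and −3.51 cycles in RIPC pools, which did not overlap (difference −1.63 cycles, SE 0.88, limma adjusted p = 0.931). The 1 detected pool of RIPC replicate 3, left out of that fit, was at −1.85 cycles, within the naive range. Grin2a, a subunit of NMDA-type glutamate receptors, was in 0%, 60% and 81.8% of naive and 12.5%, 75% and 0% of RIPC pools.

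Cholecystokinin is a gut and brain peptide. Cck, the peptide gene, was found in 1 of 3, 3 of 10 and 5 of 11 naive pools and in 1 of 8, 0 of 8 and 0 of 2 RIPC pools. The naive shares of 33.3%, 30% and 45.5% all lay above the RIPC shares of 12.5%, 0% and 0% (difference −32.1 percentage points, SE 14.8; limma p = 0.0433, adjusted p = 0.996; exact permutation p = 0.1). In single neurons Cck overlapped, at 33.3% and 25.9% against 0%, 10% and 54.5%.

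The receptor Cckbr was found in 2 of 3, 9 of 10 and 10 of 11 naive pools and in all 18 RIPC pools, so the groups did not overlap by 1 missing pool in each naive animal (difference 17.5 percentage points, SE 13.4, limma adjusted p = 0.996). In single neurons its share differed by −13.9 percentage points, and its level was −1.96 and −2.27 cycles in naive and −1.80, −1.18 and −1.89 cycles in RIPC animals (difference 0.49 cycles, SE 0.46, limma adjusted p = 0.988). Cckar, the receptor through which gut cholecystokinin acts on vagal neurons, was in 0%, 20% and 27.3% of naive and 12.5%, 87.5% and 50% of RIPC pools, which overlap (difference 34.2 percentage points). Of 9 tested gut hormone and leptin receptors 6 were higher and 3 lower in pools (median 10.3 percentage points, and 17.5 without RIPC replicate 1), and 4 were higher and 4 lower in single neurons (median 0 percentage points, against 4.94 over all genes).

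Somatostatin and its receptors were lower by share in RIPC pools in 5 of 5 genes, with a median of −13.5 percentage points, and 4 of 5 were higher in single neurons (median 10.4). Without RIPC replicate 1 they were lower in pools in 4 of 5 genes, with a median of −7.74. Sst itself was in 66.7%, 70% and 45.5% of naive and 12.5%, 37.5% and 50% of RIPC pools, where 50% exceeds 45.5% (difference −27.4 percentage points, SE 15.4, limma adjusted p = 0.996). Hcrtr1, an orexin receptor, was found in 66.7% and 46.3% of naive and 25%, 40% and 18.2% of RIPC single neurons, all below (difference −28.8 percentage points, SE 15.5, limma adjusted p = 0.893), and overlapped in pools. Fstl1, a secreted glycoprotein of the follistatin family, had pool levels of −2.68 and −2.76 cycles in naive and −2.49 and −2.11 cycles in RIPC animals with at least 2 detected pools (difference 0.42 cycles, SE 0.70). With the single detected pools of naive replicate 1, at −4.99 cycles, and RIPC replicate 1, at −1.26 cycles, the difference was 1.52 cycles. Its shares overlapped, at 33.3%, 70% and 90.9% of naive and 12.5%, 75% and 100% of RIPC pools.

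Serotonin and opioid receptors followed. Of 9 tested serotonin receptors 4 were higher and 5 lower in pools (median −0.328 percentage points, and −4.61 without RIPC replicate 1), and 6 were higher and 3 lower in single neurons (median 5.27). Htr1b, a Gi-coupled receptor, was in 66.7% and 77.8% of naive and 50%, 40% and 45.5% of RIPC single neurons, all below (difference −27.1 percentage points, SE 15.1, limma adjusted p = 0.893). Htr2c, a Gq-coupled receptor, was in 66.7%, 40% and 36.4% of naive and 12.5%, 25% and 50% of RIPC pools. Both tested opioid receptors were higher by share, by 14.1 and 16.9 percentage points in pools (median 15.5, and 24.9 without RIPC replicate 1) and by 12.6 and 26.3 in single neurons, with overlapping groups. Over all genes the medians were 0.694 in pools, 8.78 in pools without RIPC replicate 1 and 4.94 in single neurons. By level in pools 1 opioid receptor was higher and 1 lower (median −0.50 cycles, against −0.19 over all genes). Oprk1, the κ receptor, was in 66.7%, 70% and 100% of naive and 100%, 87.5% and 100% of RIPC pools. The potassium channel gene Kcnn4 was in 66.7%, 80% and 100% of naive pools and in all RIPC pools.

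Ntrk2, the receptor for brain-derived neurotrophic factor, ranked first by p among single-neuron shares. Its transcript was found in 0 of 3 and 17 of 54 naive neurons and in 4 of 4, 3 of 10 and 8 of 11 RIPC neurons. The RIPC shares of 100%, 30% and 72.7% overlapped the naive 0% and 31.5% (difference 51.8 percentage points, SE 17.9; limma p = 0.00728, adjusted p = 0.719; exact permutation p = 0.3), and in pools the difference was 4.80 percentage points.

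Rgs4, a regulator that ends G protein signals, was in 2 of 3 and 43 of 54 naive neurons and in all 25 RIPC neurons (difference 26.9 percentage points, SE 15.3, limma adjusted p = 0.893). Map2, a dendritic cytoskeleton gene, had pool levels of −1.29 and −1.18 cycles in naive and 0.14, −0.15 and −1.18 cycles in RIPC animals. Those groups did not overlap, by a margin under the second decimal (difference 0.84 cycles, SE 0.68, limma adjusted p = 0.931).

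Housekeeping and nuclear genes completed the set. Rpl19, a ribosomal protein gene, was in 66.7% and 64.8% of naive and 25%, 40% and 36.4% of RIPC single neurons, all below (difference −32 percentage points, limma p = 0.0572, adjusted p = 0.893), and in 69.2% of naive and 41.7% of RIPC pools on average, where the groups overlapped. E2f1, a cell cycle transcription factor, was in 66.7% and 64.8% of naive and 50%, 50% and 45.5% of RIPC single neurons. Where detected it was higher in RIPC, at −4.62 and −4.70 against −3.25, −3.15 and −4.03 cycles (difference 1.18 cycles, SE 0.50, limma p = 0.0441, adjusted p = 0.867), so share and level went opposite ways. By level in single neurons 2 of 59 genes lay above (3.39%), E2f1 and Cckbr, and 5 below (8.47%).

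Nr3c1, the glucocorticoid receptor, had pool levels of −0.25, −1.41 and −1.06 cycles in naive and −3.95 and −1.42 cycles in RIPC animals, with RIPC replicate 1 farthest from the others (difference −1.78 cycles, SE 0.77; limma p = 0.0403, adjusted p = 0.931; −0.52 cycles without that animal). The 1 detected pool of RIPC replicate 3, left out of the fit, was at −2.75 cycles. Pparg, a nuclear receptor of lipid metabolism, was in 0 of 3, 2 of 10 and 1 of 11 naive pools and 3 of 8, 2 of 8 and 1 of 2 RIPC pools. The shares of 0%, 20% and 9.09% lay below 37.5%, 25% and 50% (difference 27.8 percentage points, SE 13.8, limma adjusted p = 0.996). Ptgr1, a prostaglandin reductase gene, was in 0%, 0% and 9.09% of naive and 25%, 0% and 50% of RIPC pools.

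**Figure D5:**
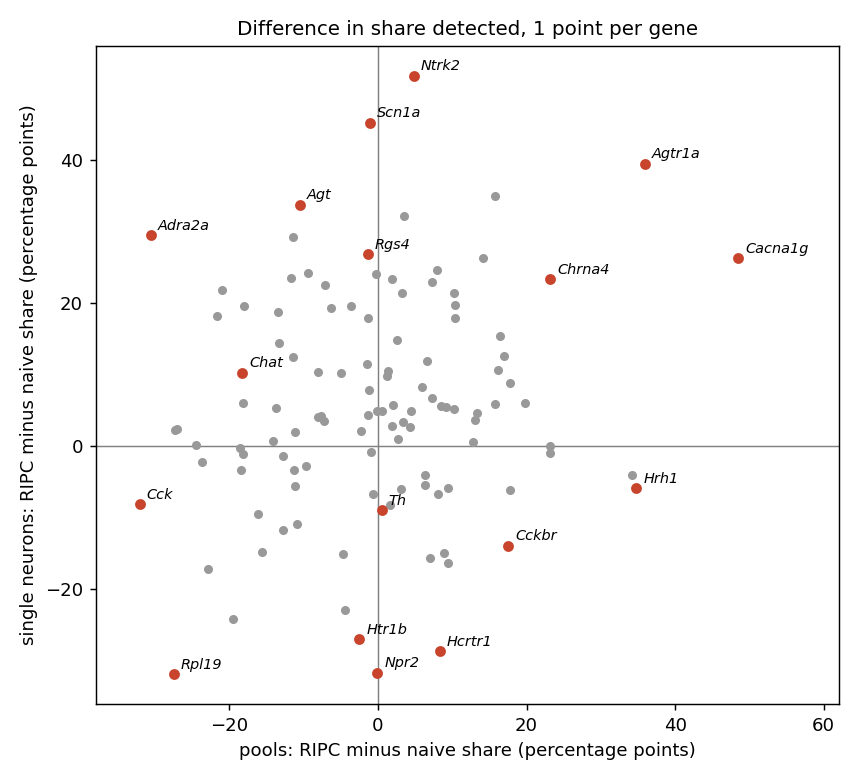
RIPC minus naive difference in share detected, in percentage points, in pools (x axis) and in single neurons (y axis) for the 114 genes tested in both, with 1 point per gene and named genes in red. Cacna1g, at 48.4 and 26.3, is the only gene whose animals did not overlap the same way in both sample types; 61 of 114 genes have the same sign in both.

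The 2 sample types came from overlapping sets of animals and were compared gene by gene. Of the 114 genes tested in both, 61 had the same sign of difference in pools and single neurons, and in no gene did the groups fail to overlap in opposite directions. The genes with the largest difference of differences after Adra2a were Scn1a at 63.6 percentage points (SE 27.3) and Grin2a at 61.4 (SE 26.6), each with an adjusted p of 0.970, and naive replicate 1, which had no single neuron, did not enter this test.

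All 4 neuronal markers of the panel were found in most samples of both groups, though not of every animal. Camk2a, a neuronal kinase, was in 95.8% of naive and 88.9% of RIPC pools and in 96.5% of naive and 96% of RIPC single neurons, and Scn2a in 95.8% and 100% of the same pools. These percentages are over all samples of a group. Map2 was in 87.5% of naive and 66.7% of RIPC pools, but as means of animals in 74.4% and 75%, and in 80.7% of naive and 80% of RIPC single neurons. Rgs4 was in 95.8% of naive and 83.3% of RIPC pools, or 88.9% and 87.5% as means of animals, and in 78.9% of naive and 100% of RIPC single neurons. Map2 was in 2 of 8 pools of RIPC replicate 1 and in 1 of 3 of naive replicate 1. Camk2a was in 6 of 8 pools of RIPC replicate 1, at a median level of −6.76 cycles, against −0.53 to 1.11 cycles in each other animal. Neither Chat nor Gad1 nor Gad2 was found in 5 of those 8 pools, against 2 of 10 in naive replicate 2 and 0 in the other animals. The astrocyte gene Gfap, the 1 gene of the astrocyte marker list on the panel, was in 87.5% of naive and 61.1% of RIPC pools and in 73.7% of naive and 88% of RIPC single neurons. By animal its pool shares were 33.3%, 90% and 100% in naive and 25%, 87.5% and 100% in RIPC animals, which overlap. Its single-neuron shares were 66.7% and 74.1% in naive and 100%, 70% and 100% in RIPC animals, which also overlap. The endothelial gene Nos3 was in 16.7% of naive and 22.2% of RIPC pools and in 10.5% of naive and 24% of RIPC single neurons. By animal its single-neuron shares were 33.3% and 9.26% in naive and 25%, 40% and 9.09% in RIPC animals, which overlap. The part of these transcripts in any difference above was not tested.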

How the data were processed

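Ct values were used as the authors deposited them: raw threshold cycles with another scale than counts, per assay and without normalization, with no value below detection. They spanned 4.94 to 27 cycles. Groups, animals, sides and cell numbers came from the labels; no source used here gives a sample's chip. Duplicate assays of 3 genes were averaged, as were second runs of 5 samples. The members, gene lists and named genes were chosen with earlier results of these data known.

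Samples with a Ct in at least 42 of 168 assays were kept. An animal entered a share with at least 2 samples and a level with at least 2 detected samples. Shares were tested for genes detected in 10% to 95% of samples, levels for genes with values in at least 2 animals per group. Naive, sham and RIPC animals were fitted together with limma 3.58.1 in R 4.3.3, and RIPC was contrasted with naive, two-sided, with Benjamini-Hochberg adjustment over all genes tested. Animals without a value were left out of that gene's fit. Exact permutation tests ran over animals. Named genes were those with the smallest p of a fit, the largest differences among genes whose groups did not overlap, the genes that the study singled out, cell identity genes, and the gene with the largest rise and fall in pools of each family list, of which some are named. The scripts were tested on simulated data. Alternatives covered sample and gene filters, centring, weights, undetected values, the scale of the share, sides, pool size, single animals and the replicate block. The identity of 1 gene is not reported here. All 165 symbols matched the RefSeq rat table (GRCr8) without regard to case. Depth is the number of assays with a Ct per sample, 43 to 149 among kept samples, and binomial intervals are exact Clopper-Pearson. Separate rats were used, but neurons of 1 rat share that rat.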

Additional observations from a re-analysis of the deposited data

How the results depend on the processing

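With 3 animals against 3, and 2 against 3 for single neurons, only large differences could pass, and animals with 2 or 3 samples weighed as much as one with 54. No gene was called in 98 of 103 fits. The unadjusted counts moved more. By share in single neurons, weighting animals by samples gave 11 of 122 genes at an unadjusted limma p under 0.05, with a smallest adjusted p of 0.0522. The main fit gave 3 such genes and the assay covariate 0. By share in pools without RIPC replicate 1 it was 12 of 130 genes, with a smallest adjusted p of 0.0644, against 4 in the main fit. Npr3 was called by level in pools of 4 or 5 cells alone (1 gene, adjusted p = 0.0384, difference 4.87 cycles), 1 other gene with at least 1 sample per animal and with no gene filter, Chrm3 by the methods' t-test over samples (1 gene, adjusted p = 0.0121, difference −2.98 cycles), which treats pools of an animal as independent, and Scn1a by share in single neurons without naive replicate 3 (1 gene, adjusted p = 0.0324, difference 78.6 percentage points against 3 naive neurons). The counts of called genes ranged from 0 to 1 on leaving out animals in single neurons by share and were 0 otherwise. The cause of these changes was not tested. Requiring 84 assays left no gene for levels in single neurons or for the difference between sample types.

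The difference in assays per pool turned to −4.20 with every sample and ranged from −5.93 to 11.2 on leaving out 1 animal; in single neurons it ranged from 0.463 to 15.5. The labels give no pairing of same-numbered animals. Their deviations had correlations of 0.252, −0.101 and 0.00174. The best-matching RIPC animal was replicate 1, 3 and 2 for naive replicates 1, 2 and 3. With so few animals these values cannot show whether animals were handled in pairs. With a replicate block 0 genes were called in each fit, with 3 and 2 genes by share and level in pools and 4 and 4 in single neurons at an unadjusted p under 0.05.

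Of 61 gene results 33 kept their direction under every alternative. The others changed sign as follows. By share in pools (percentage points), weighting animals by samples, like Fisher's exact test over samples, gave −4.17 for Hrh3, 22.2 for Npr3 and −20.8 for Th. At least 3 samples per animal gave −1.87 for Chrna4, 26.9 for Npr3 and −18.3 for Th. Pools of 4 or 5 cells gave −5.16 for Hrh3, −3.97 for Chrna4, 25.2 for Npr3, −36.3 for Th, −1.19 for Cebpb and −4.76 for Ptgr1. The left DMV alone gave −23.3 for Hrh3, −34.4 for Chrna4, 9.17 for Npr3, −41.1 for Th and −11.1 for Fos, and the right DMV alone gave 60 for Npr3, −7.5 for Th, 15.8 for Nppc and 15 for Cacna1i. Every sample gave −1.52 for Hrh3, 5.43 for Npr2 and 6.31 for Npr3; at least 84 assays gave 32.5 for Npr2, 11.7 for Fstl1 and −4.11 for Fos; Ct above 20 as undetected gave −2.85 for Hrh3 and 21.7 for Npr3. The assay covariate gave 0.218 for Npr3 and −1.11 for Th, and on the arcsine scale they were 0.0619 and −0.038. Single neurons and pools together gave −3.69 for Cckbr, 5.91 for Npr3, −5.8 for Th, 10.5 for Gfap and 3.77 for Grin2a. By share in single neurons, Npr2 was 26.7 with at least 84 assays, Agt −7.41 in the right DMV, and E2f1 5.89 with Ct above 20 as undetected and 8.49 in the left DMV. By level in pools (cycles), Npr2 was 0.14 centred on all assays, 0.23 with every sample and 0.39 without centring. Chrna4 was 0.35 with the covariate, 0.0338 without centring, 0.74 with undetected values filled in and 0.38 with both sample types. Filling in gave −0.0573 for Gabra2, and in single neurons −0.28 for E2f1 and −0.46 for Cckbr. Both sample types together gave −0.72 for Th, −0.0759 for Fstl1, 0.15 for Hrh3 and −0.22 for Gabra2. On leaving out 1 animal, pool shares ranged from −11.2 to 13.8 for Hrh3, −1.87 to 41.9 for Chrna4, −19.7 to 17.8 for Gabra2, −16.8 to 27 for Npr2, −23.1 to 26.9 for Npr3, −21 to 22.8 for Fstl1, −18.3 to 25.5 for Th, −30.8 to 6.67 for Chat, −1.97 to 12.6 for Fos, −9.17 to 3.33 for Camk2a and −24.2 to 19.3 for Gfap, and pool levels from −0.84 to 0.52 for Chrna4, −0.0603 to 0.48 for Gabra2 and −0.44 to 0.0862 for Npr2. Among these genes, the share changed sign without naive replicate 1 for Hrh3, Npr3, Th and Fos, without naive replicate 2 for Hrh3, Gfap, Npr2, Npr3 and Fstl1, without naive replicate 3 for Gabra2, Gfap and Fstl1, without RIPC replicate 1 for Chat, Gabra2, Npr2, Fstl1, Camk2a and Gfap, without RIPC replicate 2 for Hrh3 and Th, and without RIPC replicate 3 for Chrna4, Npr3 and Th. The level did so without naive replicate 2 for Chrna4 and Gabra2, and without naive replicate 3 or RIPC replicate 2 for Npr2.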
